A study of Mus musculus with 10 samples.

Results

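The genes described here encode the proteins of the mitochondrial ribosome. They were chosen by name: probe sets annotated with exactly 1 gene symbol that starts with MRPL or MRPS and a digit, with 1 probe set per gene, the one with the highest mean over the 10 arrays. This gave 77 genes, from 142 probe sets, of the 19556 genes that have a probe set with 1 symbol. The rule uses no measured difference, but it was set with earlier results of these data known. MRPL20-AS1, an antisense RNA, and MRPL45P2, a pseudogene, match the name but encode no ribosomal protein. Of the others, 50 encode proteins of the large subunit and 25 proteins of the small subunit. MRPL51 and MRPS28 were read only by probe sets that carry several symbols and were left out. MRPL45P2, at 1.86 to 2.24 on the log2 scale on the 10 arrays, lay below the filter on low signal, so 76 genes were tested.

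The samples were estrogen receptor positive human breast cancer cells grown in female nu/nu mice, a strain without a working thymus and so short of T cells, aged 20 weeks. Every mouse had been given an estrogen pellet, which was taken out for 1 week in the mice called withdrawn. Mice 6, 11 and 14 kept the pellet and each gave an axillary lymph node metastasis, as did mice 9, 10 and 19 after withdrawal. Primary tumors of the mammary gland were taken from mice 11 and 14 (pellet kept) and from mice 10 and 19 (withdrawn), so 4 mice gave both sites. Laser capture from frozen sections yielded small amounts of RNA, which PCR amplified ahead of hybridization. The labels give the mouse, the host, as organism although the probe sets are human, and the cell line is not given in the sources used here. The design asks how the tumor cells respond to estrogen in each site, and how the sites differ in each pellet state.

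Mitochondria hold their own ribosome, which translates the few proteins encoded by the mitochondrial genome, all of them parts of the respiratory chain and ATP synthase. Its RNAs are made inside the organelle, but every one of its proteins is encoded in the nucleus, made on cytosolic ribosomes and imported. Many of these proteins descend from bacterial ribosomal proteins, and others are found only in mitochondrial ribosomes. Growth signals such as estrogen act on nuclear genes for mitochondrial proteins in breast cancer cells, which is why the genes are of interest in this model.

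The arrays were not alike in range. The 99th percentile of all probe sets was 9.44 and 10.04 on the log2 scale on the arrays of primary tumors with estrogen, against 11.39 to 11.67 on the other 8, while array medians lay between 2.70 and 2.83. Each comparison is therefore given as deposited and again after quantile normalization, which gives every array the same distribution of values. Spiked hybridization controls, added to the cRNA and not part of the tissue, averaged 9.47 to 10.59 on 6 arrays and 12.04 to 12.47 on 4, which were the lymph nodes of mice 11 and 19 and the withdrawn primary tumors. In primary tumors this split followed the pellet state exactly, so split and state cannot be told apart there. The GAPDH 3′ probe set lay above the 5′ probe set by 3.15 and 3.73 in primary tumors with estrogen, 4.62 and 5.87 in withdrawn ones, and 3.84 to 4.39 in lymph nodes. Markers of luminal tumor cells (10 genes, among them KRT8, KRT18 and EPCAM) had summed log2 levels of 80.9 to 82.9 in primary tumors with estrogen, 103.0 to 103.8 in withdrawn primary tumors, 92.1 to 100.6 in lymph nodes with estrogen and 104.7 to 107.2 in withdrawn ones. Lymphocyte markers (8 measured of 9) were low throughout, at summed levels of 22.0 to 25.4. All markers were read by human probe sets, and how far these read cells of the mouse host was not tested.

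The members were read well above the middle of each array. As deposited, their median signal in lymph nodes was 8.89, 7.93 and 9.05 with estrogen (mice 6, 11 and 14) and 8.37, 8.52 and 7.79 after withdrawal (mice 9, 10 and 19). In primary tumors it was 7.23 and 7.30 with estrogen (mice 11 and 14) and 8.24 and 7.81 after withdrawal (mice 10 and 19). The primary tumors with estrogen were thus lowest, and the lymph nodes overlapped between the pellet states because mouse 11 lay low among those with estrogen. Ranked within its own array, the median member stood at the 88.5th, 85.3rd and 88.5th percentile of the tested genes in lymph nodes with estrogen and at the 83.9th, 85.6th and 83.0th after withdrawal. In primary tumors it stood at the 85.2nd and 85.6th percentile with estrogen and at the 84.4th and 81.7th after withdrawal. By rank, the primary tumors with estrogen were therefore the higher of the primary tumors, and mouse 11 again overlapped with the withdrawn lymph nodes.

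**Figure D1:**
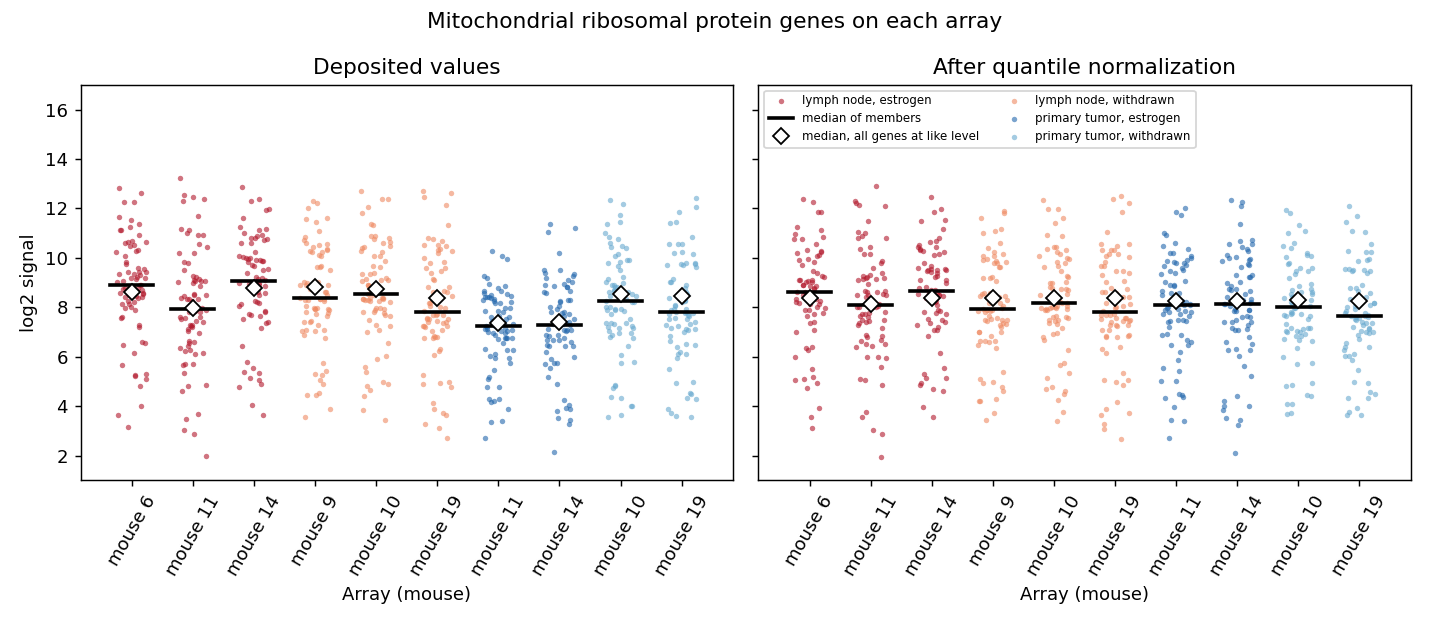
Log2 signal of the 76 tested mitochondrial ribosomal protein genes (points) on each of the 10 arrays, as deposited (left) and after quantile normalization (right); bars are the members' medians and diamonds the medians of the 2358 genes in the same signal range. As deposited the members' medians in primary tumors with estrogen were 7.23 and 7.30, the lowest of all arrays, and after quantile normalization they were 8.09 and 8.15.

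Genes of like signal were used as a yardstick, namely the 2358 tested genes whose mean lay in the range that holds the middle of the members, 7.38 to 9.66. Their median with estrogen was 7.37 and 7.39 in primary tumors and 8.63, 7.96 and 8.79 in lymph nodes. After withdrawal it was 8.56 and 8.47 in primary tumors and 8.82, 8.73 and 8.38 in lymph nodes. The shift of the primary tumors with estrogen was therefore shared by genes of the same signal. In each withdrawn sample the members' median lay below that of these genes, and in the lymph nodes of mice 6 and 14 it lay above. The part of the array range, the hybridization controls, the GAPDH ratio and the marker sums in the members' values was not tested. In tissue of this kind, fewer tumor cells and less RNA per cell cannot be told apart.

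Single members differed in how far they moved over the 10 arrays. The range between the lowest and highest array had a median of 2.34 over the members, and of 1.57 after quantile normalization. It was narrowest for MRPL44, a large-subunit protein with a fold related to ribonuclease III, which stayed between 5.72 and 6.45, a range of 0.73. MRPL38 followed with a range of 0.92. It was widest for MRPL13, a large-subunit protein with a bacterial counterpart, with a range of 4.04, then MRPL41 (3.81), which has also been reported to bind the survival protein BCL2, and MRPL35 (3.72).

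Much of this spread lay inside the lymph nodes with estrogen. There, mouse 11 had the lowest value for 58 of 76 members, against 48.8% of all genes tested. MRPL13 read 6.47, 3.66 and 7.70 in mice 6, 11 and 14, so mouse 11 lay 3.42 below the mean of the other two. MRPL35, MRPS33 and MRPL1 showed the same order, with mouse 11 lower by 3.22, 3.02 and 2.91. Mouse 11 was highest for 13 members, against 35.2% of all genes. MRPL41 read 11.53, 12.47 and 10.22 in mice 6, 11 and 14, and MRPL28 read 9.41, 9.78 and 7.63. The same array stood apart in markers of other cell types, also read by human probe sets. Its summed myeloid level was 13.7 against 9.14 to 11.0 elsewhere (4 of 6 markers measured, 2 of them above the filter on low signal). Its summed endothelial level was 20.2 (5 of 5) against at most 17.8, and its luminal level of 92.1 was the lowest of the lymph nodes. In withdrawn lymph nodes mouse 19 was lowest for 57 of 76 members, against 48.0% of all genes. The median standard deviation of a member was 0.56 in lymph nodes with estrogen (n = 3), 0.39 in withdrawn ones (n = 3), 0.24 in primary tumors with estrogen (n = 2) and 0.27 in withdrawn ones (n = 2).

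In lymph nodes, most members read somewhat higher with estrogen than after withdrawal, but no single one passed the test. The difference (estrogen minus withdrawal) was above 0 for 61 of 76 members, with a median of 0.25 on the log2 scale, or 1.19-fold, and a range of −0.65 to 1.08. The median over all 17170 genes was −0.02 and that of genes of like signal −0.16. After quantile normalization 64 members were above 0, with a median of 0.33, against 0.02 over all genes and −0.05 for genes of like signal. None was called by limma at an adjusted p below 0.05 on either scale, as was the case for 0% of all genes, and 5 members, all higher, had an unadjusted p below 0.05 as deposited and 10 after quantile normalization.

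MRPS2, a small-subunit protein with a bacterial counterpart, had the greatest t value of the members in this comparison. It read 8.55, 8.32 and 8.63 with estrogen in mice 6, 11 and 14, and 7.42, 7.78 and 7.05 after withdrawal in mice 9, 10 and 19. All 3 lymph nodes with estrogen lay above all 3 withdrawn ones, a difference of 1.08 (SE 0.27, limma adjusted p = 0.42). MRPS17, another small-subunit protein, read 8.59, 7.81 and 8.97 against 7.26, 7.69 and 7.41, also without overlap, a difference of 1.00 (SE 0.32). MRPL4, which lines the tunnel through which the new protein leaves the ribosome, read 9.06, 9.08 and 8.99 against 8.29, 8.38 and 7.72, a difference of 0.91 (SE 0.31). MRPS12, a protein of the decoding centre, read 9.14, 8.48 and 8.48 against 7.96, 8.30 and 7.07, a difference of 0.92 (SE 0.34), with 2 of its 4 probe sets showing this sign. These 4 were higher in each of the 3 mice with estrogen than in any withdrawn mouse, and their limma adjusted p-values lay at 0.42 and above. After quantile normalization the corresponding differences were 1.16, 1.08, 0.96 and 0.99.

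In all, 8 members had lymph nodes with estrogen entirely above withdrawn ones, where 4.47% of all genes did, and 0 members had the opposite order, where 5.46% of all genes did. The other 4 were MRPL36, MRPS5, MRPL34 and MRPL52, and all 6 probe sets of MRPS5 showed this sign. After quantile normalization it was 12 members (5.47% of all genes) and 0 (5.63%), and 6 members did so on both scales: MRPS2, MRPS5, MRPS12, MRPS17, MRPL4 and MRPL52. Against the median, MRPL53 differed by −0.65, MRPL13 by −0.50, MRPL43 by −0.45 and MRPS31 by −0.28. For MRPL13 and MRPL43 the low value of mouse 11 enters this difference: MRPL43 read 8.41, 6.58 and 8.59 with estrogen against 8.51, 8.28 and 8.16.

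The members' median in lymph nodes depended on single arrays. It was 0.48 without mouse 11 with estrogen, 0.05 without mouse 14 with estrogen, 0.07 without withdrawn mouse 19 and 0.39 without withdrawn mouse 10. After quantile normalization it lay between 0.27 and 0.45 whichever array was left out. Among the arrays with low hybridization controls (2 against 2), 65 of 76 members were above 0 as deposited, with a median of 0.31. Between the 2 arrays with high controls (mouse 11 against mouse 19) 37 were above 0, with a median of −0.03, and after quantile normalization 46 with a median of 0.12.

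In primary tumors the deposited values of most members were lower with estrogen than after withdrawal. The difference was below 0 for 64 of 76 members, with a median of −0.84, or 1.79-fold, and a range of −2.53 to 0.75. Genes of like signal had a median of −1.18, with 85.4% of them below 0, and all genes one of −0.10. Limma called 9 members lower, or 11.8% of those tested, where 6.94% of all genes (7.82% in either direction) and 14.5% of genes of like signal were called lower. It called 0 members higher, where 0.879% of all genes were, and the 1 member with an unadjusted p below 0.05 in that direction was MRPS2.

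MRPL3, a large-subunit protein with a bacterial counterpart that reaches the catalytic centre, fell most among the 9. It read 8.95 and 9.50 with estrogen in mice 11 and 14, and 11.73 and 11.41 after withdrawal in mice 10 and 19. Both tumors with estrogen lay over 1 log2 unit below both withdrawn ones, a difference of −2.34 (SE 0.42, limma adjusted p = 0.0189). MRPL10, which anchors the stalk that recruits translation factors, read 8.50 and 8.80 against 10.85 and 10.54 and fell by 2.06 (SE 0.47, limma adjusted p = 0.0355). MRPL33, a small bacterial-type protein of the large subunit, read 8.52 and 9.12 against 10.58 and 10.85 and fell by 1.89 (SE 0.34, limma adjusted p = 0.0189). MRPS23, found only in mitochondrial ribosomes, read 8.58 and 9.01 against 10.48 and 10.56 and fell by 1.73 (SE 0.30, limma adjusted p = 0.0179). In each of these genes the withdrawn tumors lay closer to the lymph nodes than to the tumors with estrogen.

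The other 5 fell by less. MRPL57, a protein found only in mitochondrial ribosomes, read 8.66 and 9.25 against 10.77 and 10.55 (−1.70, SE 0.40). MRPS15, a bacterial-type small-subunit protein, read 9.26 and 10.20 against 11.38 and 11.45 (−1.69, SE 0.34). MRPL9 of the large subunit read 9.96 and 11.04 against 12.17 and 12.07 (−1.62, SE 0.36). In all of these mouse 11 lay below mouse 14 among the tumors with estrogen. MRPS21 of the small subunit read 10.26 and 11.36 against 12.33 and 12.43 (−1.57, SE 0.33), and MRPS14 read 7.95 and 8.88 against 9.82 and 9.77 (−1.38, SE 0.34). Limma adjusted p-values of these 5 lay between 0.025 and 0.0426. All probe sets of the 5 called genes with several probe sets had the same sign. MRPS33, MRPS30 and MRPL19 had differences of −2.53, −2.22 and −1.86 but larger spread and were not called.

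**Figure D2:**
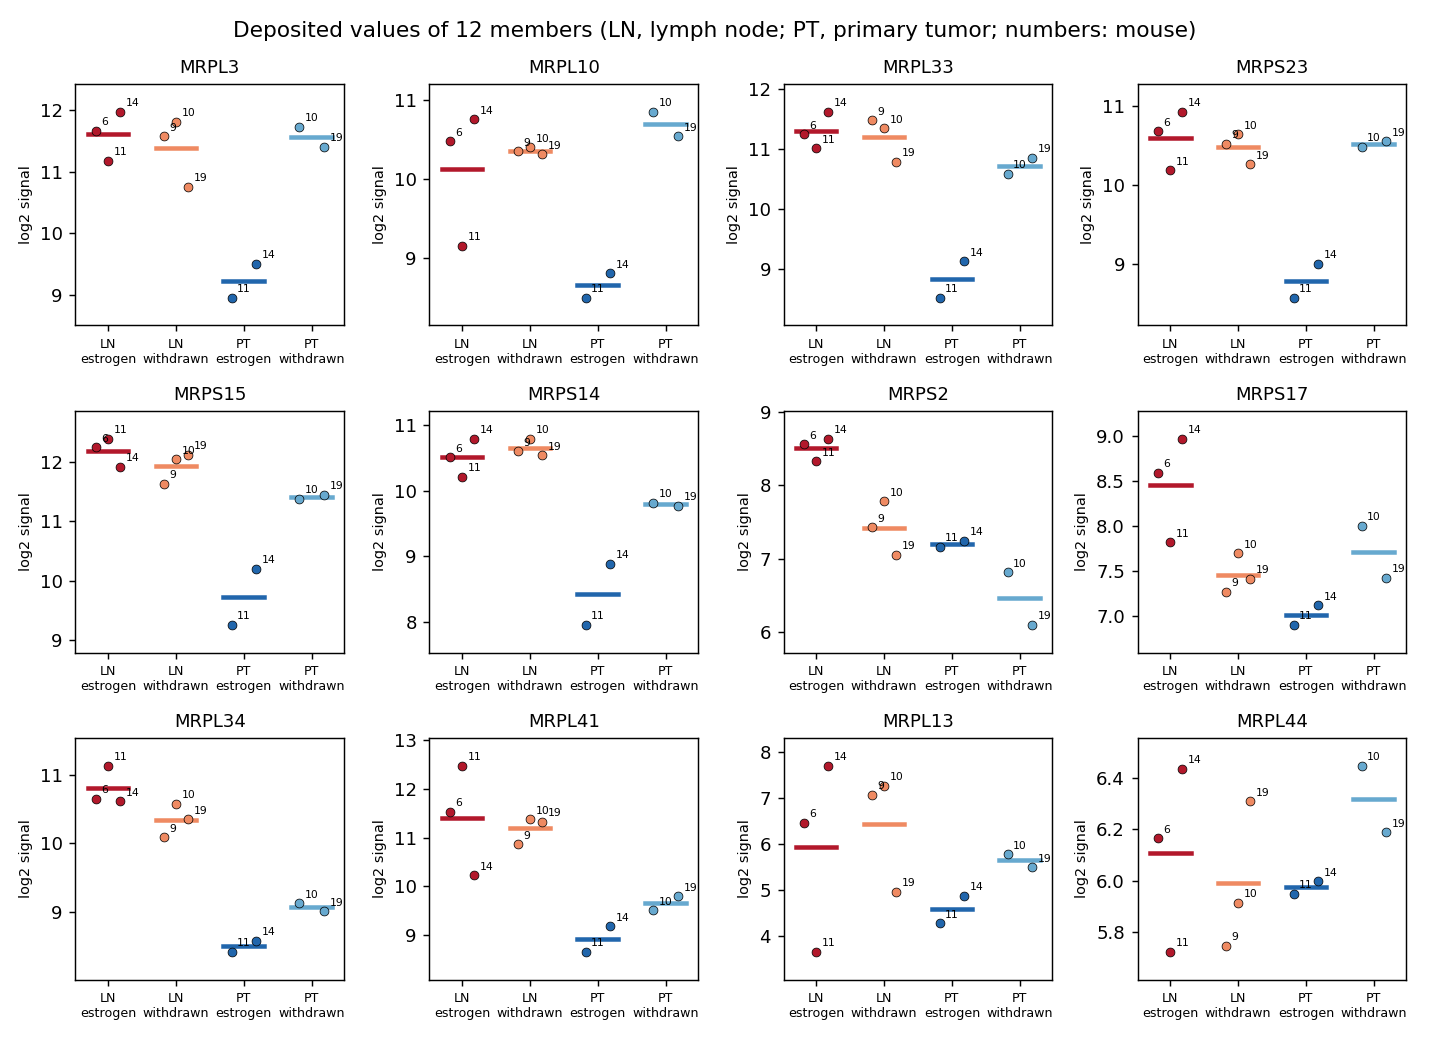
Deposited log2 signal of 12 mitochondrial ribosomal protein genes on the 10 arrays by group; points are single arrays labelled with the mouse, bars are group means, and each panel has its own axis, which does not start at 0. MRPL3, MRPL10, MRPL33, MRPS23, MRPS15 and MRPS14 are low in both primary tumors with estrogen, MRPS2 and MRPS17 are higher with estrogen in lymph nodes, and MRPL13 and MRPL41 show mouse 11 apart from mice 6 and 14.

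Quantile normalization ended all of these calls. The median difference in primary tumors became 0.17, with 47 of 76 members above 0, against 0.06 over all genes and −0.06 for genes of like signal. Of the 9 genes called as deposited, 5 still had a difference below 0 (MRPL3 −0.54, MRPL10 −0.47, MRPL33, MRPL57 and MRPS23) and MRPS14, MRPS15, MRPS21 and MRPL9 had one between 0.02 and 0.17. MRPL3 and MRPL10 kept tumors with estrogen entirely below withdrawn ones, at 10.59 and 10.69 against 11.34 and 11.03 for MRPL3 and 9.93 and 9.89 against 10.48 and 10.25 for MRPL10.

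One member was called after quantile normalization, and it was higher with estrogen. MRPS2 read 8.003 and 8.06 with estrogen and 6.68 and 6.02 after withdrawal on that scale, a difference of 1.68 (SE 0.29, limma adjusted p = 0.0359), where 0.757% of all genes were called higher, 0.582% lower and 1.34% in either direction. As deposited it read 7.16 and 7.24 against 6.82 and 6.10. Its groups did not overlap on either scale, in primary tumors or in lymph nodes, and it has 1 probe set. Its adjusted p lay between 0.0134 and 0.188 when arrays were left out after quantile normalization, and it passed without mouse 11 or mouse 14 among lymph nodes with estrogen, without the withdrawn lymph node of mouse 19 and without the withdrawn primary tumor of mouse 10. The next by t on that scale were MRPL24 (1.10, SE 0.25), MRPS18A (1.29, SE 0.30), MRPL4 (1.61, SE 0.43) and MRPS11 (1.65, SE 0.44), which did not pass. Against that direction stood MRPS31 at −1.79, MRPL19 at −1.59, MRPS33 at −1.49 and MRPS30 at −1.45. All of these 4 had tumors with estrogen entirely below withdrawn ones on both scales. The other probe sets of MRPL19 differed by −0.86 and 0.04 after quantile normalization and by −1.01 and 0.07 as deposited. MRPS31 also had probe sets on either side of 0.

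As deposited, 54 members had primary tumors with estrogen entirely below withdrawn ones, where 38.3% of all genes did, and 6 had them above, where 22.6% did. After quantile normalization 18 lay below (26.8% of all genes) and 30 above (31.1%). The 18 were all among the 54. The 6 that lay above as deposited did so on both scales: MRPS2, MRPL12, MRPL2, MRPL24, MRPL38 and MRPL52. MRPL12, the stalk protein that contacts translation factors, read 5.08 and 5.53 with estrogen and 4.37 and 4.94 after withdrawal as deposited, a difference of 0.64. MRPL2, near the catalytic centre, read 4.16 and 4.23 against 3.63 and 3.59, a difference of 0.58.

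**Figure D3:**
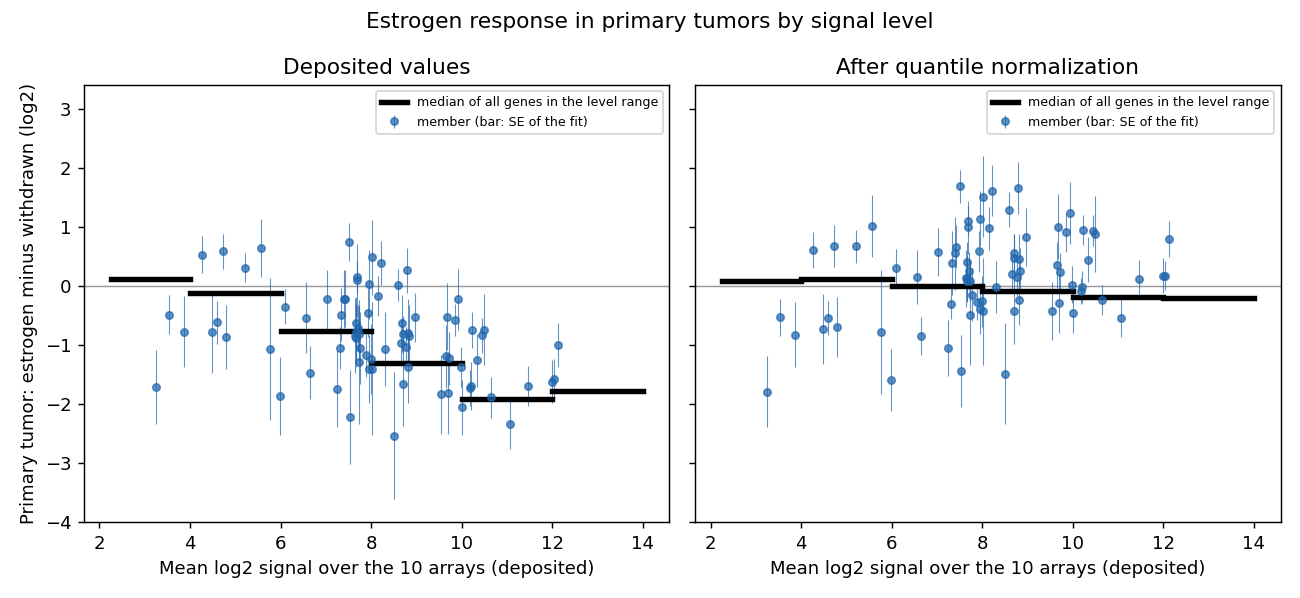
Difference of each member in primary tumors (estrogen minus withdrawal, log2; bars are the standard error of the fit) against its mean deposited signal, with black bars for the median of all genes in ranges of signal. As deposited the median of all genes goes from −0.12 at a signal of 4 to 6 to −1.92 at 10 to 12, and the members follow with −0.62 and −1.69, whereas after quantile normalization the medians of all genes lie between −0.20 and 0.12.

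The deposited difference in primary tumors followed the signal of the gene. Over all genes the median difference was −0.12 for mean signals of 4 to 6, −0.77 for 6 to 8, −1.31 for 8 to 10 and −1.92 for 10 to 12. The members had medians of −0.62, −0.71, −0.90 and −1.69 in these ranges, from 9, 25, 26 and 11 genes. Their values thus lay below those of all genes in the lowest of these ranges and above them from a signal of 6 upward. After quantile normalization the members' medians were −0.55, 0.14, 0.31 and 0.12 against 0.12, 0.01, −0.08 and −0.18.

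The call count in primary tumors changed with most single arrays. No member was called without mouse 11 with estrogen, without withdrawn mouse 10 or without withdrawn mouse 19, each of which leaves 1 tumor in its group, whose spread is then taken to be like that of the other groups. Counts were 23 without the lymph node of mouse 11 (20.8% of all genes called in either direction) and 4 without that of mouse 6 (4.14%). They were 3 without the withdrawn lymph node of mouse 10 (3.03%) and 6 without that of mouse 9 (5.62%). None of these arrays is a primary tumor, but the spread of each gene is estimated over all groups together. For the counts after quantile normalization, the share of all genes is not given here. With the hybridization split as a covariate 45 members were called lower and the median was −1.56, where 32.8% of all genes were called, and the covariate is then estimated from lymph nodes alone. The median stayed between −1.14 and −0.58. No member was called in every one of these fits. After quantile normalization the count was 8 without the lymph node of mouse 11, 1 without each of 3 others and 0 in the remaining 6, and the median lay between −0.04 (without withdrawn mouse 19) and 0.31.

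The difference between the responses of the sites (lymph node minus primary tumor) was above 0 for 72 of 76 members as deposited, with a median of 1.15, against 0.15 over all genes and 0.96 for genes of like signal. No member was called, where 0.0116% of all genes were, and 26 members had an unadjusted p below 0.05. With the hybridization split as a covariate 38 were called, all above 0, with a median of 1.84, where 19.7% of all genes were called. MRPL3 had the greatest t with a difference of 2.56 (SE 0.55), followed by MRPS23 with 1.85 (SE 0.40), MRPL33 with 1.98 (SE 0.45) and MRPS15 with 1.95 (SE 0.45), each at a limma adjusted p of 0.163. After quantile normalization 46 members were above 0, the median was 0.16, 0 were called where 0.00582% of all genes were, and 5 had an unadjusted p below 0.05. Without the lymph node of mouse 11 the deposited count was 18 (8.99% of all genes), and without any other lymph node it was 0. Without the primary tumor of mouse 14, which leaves 1 in its group, the median was 1.23.

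Seen gene by gene, 50 members were above 0 in lymph nodes and below 0 in primary tumors as deposited, and 20 did so after quantile normalization, where another 44 were above 0 in both sites. In both sites and on both scales 11 members were above 0: MRPS2, MRPS11, MRPS18A, MRPL2, MRPL4, MRPL12, MRPL24, MRPL28, MRPL38, MRPL42 and MRPL52. Another 9 were below 0 in both sites on both scales: MRPS30, MRPS31, MRPS33, MRPS35, MRPL10, MRPL13, MRPL14, MRPL43 and the antisense RNA MRPL20-AS1. These signs are those of the probe set used for each gene. Among the 11, every probe set of MRPS18A, MRPL4 and MRPL52 was above 0. MRPS11, MRPL2, MRPL12, MRPL38 and MRPL42 also had probe sets below 0. The other probe set of MRPL42 differed by −1.51 in primary tumors as deposited. Of 38 members with several probe sets, all were of 1 sign for 18 in lymph nodes and 21 in primary tumors, as deposited. The sites share mice but no arrays.

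**Figure D4:**
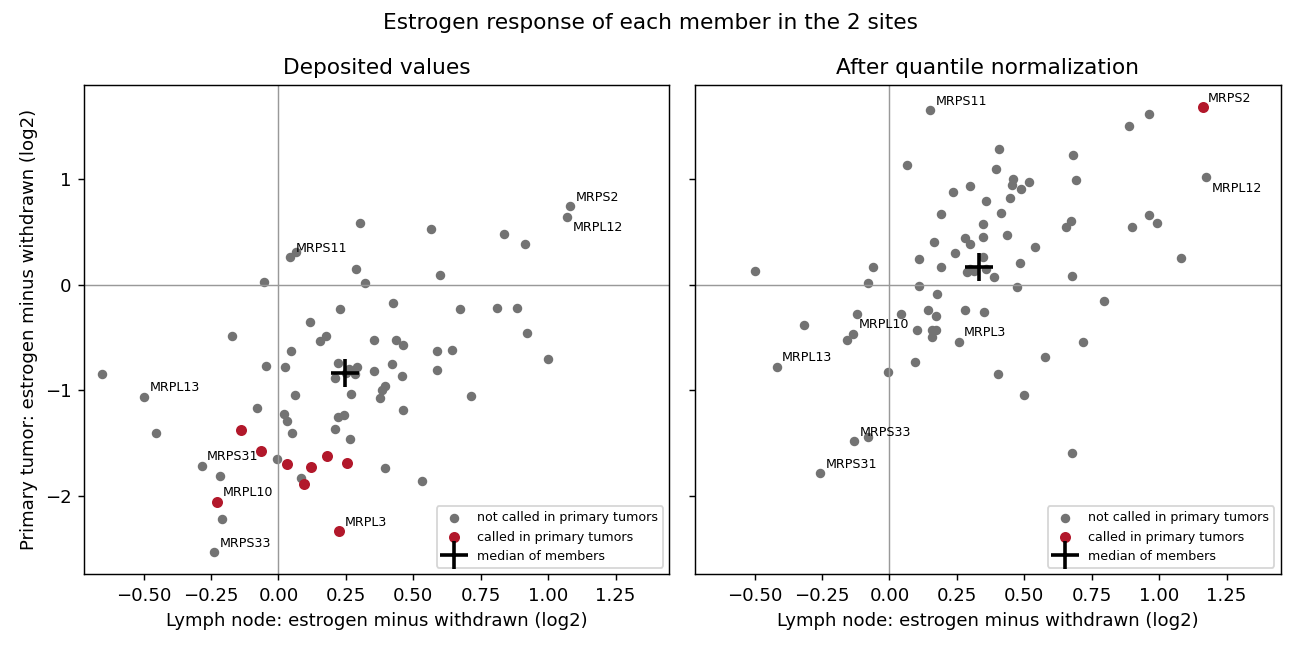
Estrogen response of each of the 76 members in lymph nodes (horizontal, estrogen minus withdrawal, log2) and primary tumors (vertical), as deposited and after quantile normalization; red points passed the test in primary tumors and the cross is the members' median. As deposited the cross lies at 0.25 and −0.84, after quantile normalization at 0.33 and 0.17, and MRPS2 is at the upper right on both scales.

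With estrogen, lymph nodes read higher than primary tumors for nearly every member as deposited. The difference was above 0 for 75 of 76 members, with a median of 1.51, or 2.84-fold, against 0.26 over all genes and 1.14 for genes of like signal. Limma called 30 members higher in lymph nodes, or 39.5%, where 7.81% of all genes and 18.4% of genes of like signal were called higher, and 0 lower, where 0.949% were (8.76% in either direction). The one member below 0 was MRPL20-AS1 at −0.01, the antisense RNA. Mice 11 and 14 gave both sites: with mouse as a fixed replicate block 0 members and 0% of all genes were called, with a median of 1.34, and the same held for a fit of the 5 arrays of this comparison alone.

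The greatest called differences were 2.49 for MRPL41 (SE 0.56), 2.47 for MRPL33 (SE 0.32), 2.46 for MRPS15 (SE 0.32) and 2.41 for MRPS34 (SE 0.48). MRPL41 read 8.66 and 9.19 in primary tumors, below its 11.53, 12.47 and 10.22 in lymph nodes. MRPL33 read 8.52 and 9.12 against 11.24, 11.01 and 11.62. Both primary tumors lay below all lymph nodes, with or without estrogen, for both genes. MRPL3 and MRPL19 each differed by 2.38, MRPL36 by 2.31 and MRPL34 by 2.30. MRPL34, a small bacterial-type protein of the large subunit, read 10.66, 11.14 and 10.62 against 8.41 and 8.58 and had the lowest p of the members (SE 0.25, limma adjusted p = 0.00465). MRPL33, MRPL34, MRPS14 and MRPS15 were called in every fit that left out 1 of the 10 arrays, though not with mouse as a fixed block. In 56 members the groups did not overlap with lymph nodes higher, where 28% of all genes did so, and in 0 with lymph nodes lower, where 9.98% did.

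After quantile normalization 56 members were still above 0, with a median of 0.47 against 0.02 over all genes and 0.07 for genes of like signal. None was called, where 0.0757% of all genes were called higher, 0.384% lower and 0.46% in either direction, and 14 members, all higher in lymph nodes, had an unadjusted p below 0.05. MRPL19 had the greatest t (2.11, SE 0.50, limma adjusted p = 0.127), followed by MRPL21 (0.99, SE 0.27), MRPL18 (0.85, SE 0.25) and MRPL33 (0.83, SE 0.24). On this scale MRPL19 read 5.04 and 4.01 in primary tumors, below its 6.34, 6.53 and 7.07 in lymph nodes. The other probe sets of MRPL19 differed less, by 0.18 and 0.69 on this scale and by 0.39 and 0.69 as deposited. Lymph nodes lay entirely above primary tumors for 23 members (13.6% of all genes) and entirely below for 4 (14.3%), which were MRPS10, MRPS11, MRPL17 and MRPL44. The deposited count of 30, where 8.76% of all genes were called in either direction, changed with single arrays. It was 54 (22.4% of all genes) without the lymph node of mouse 11 and 19 (9.11%) without that of mouse 14. Without the lymph node of mouse 6 it was 8 (2.29%). Leaving out a withdrawn lymph node gave 14 (5.13%, mouse 10), 20 (6.38%, mouse 9) and 27 (8.67%, mouse 19). Against the full fit, the share of all genes moved in the same direction as the count, except without mouse 14. Leaving out a primary tumor leaves 1 in its group. The members' median was then 1.394 and 1.454 (mice 11 and 14 with estrogen), and 1.52 without either withdrawn one. Among the arrays with low hybridization controls (2 lymph nodes, 2 primary tumors) 76 of 76 members were above 0 as deposited, with a median of 1.83, and 59 after quantile normalization, with a median of 0.49.

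After withdrawal the sites were closer. The difference was above 0 for 51 of 76 members, with a median of 0.32 as deposited, against 0.07 over all genes, and for 49 with a median of 0.24 after quantile normalization, against 0.01. No member was called on either scale, as for 0% of all genes, and 12 had an unadjusted p below 0.05 on each. With the hybridization split as a covariate the median turned to −0.27, and 3 members were called higher and 2 lower in lymph nodes, where 6.28% of all genes were called. MRPL2 read 4.90, 5.60 and 4.91 in lymph nodes (mice 9, 10 and 19) and 3.63 and 3.59 in primary tumors (mice 10 and 19), a difference of 1.52 (SE 0.28, limma adjusted p = 0.146). MRPL34 read 10.09, 10.58 and 10.35 against 9.13 and 9.01, a difference of 1.27 (SE 0.25). For both genes all lymph nodes lay above both primary tumors, as they did with estrogen. MRPL24 and MRPS2 differed by 0.95 and 0.96. Against this direction stood MRPS31 (−0.80), MRPS33 (−0.69), MRPL54 (−0.53) and MRPL20 (−0.51).

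In withdrawn samples 20 members had lymph nodes entirely above primary tumors (20.8% of all genes) and 2, MRPL10 and MRPS31, entirely below (10.2%). After quantile normalization these numbers were 23 (17.7%) and 5 (13.8%). The median was 0.10 without the primary tumor of mouse 19, 0.17 without the lymph node of mouse 10 and 0.48 without the primary tumor of mouse 10 or the lymph node of mouse 19. Among the arrays with high hybridization controls, 1 lymph node against 2 primary tumors, it was −0.12 with 35 members above 0.

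Members were also described by subunit and by origin. In lymph nodes the large-subunit genes had a median estrogen difference of 0.26 and the small-subunit genes 0.23 as deposited. In primary tumors these were −0.82 with 5 of 50 called lower and −0.88 with 4 of 25 called lower, where 6.94% of all genes were, and after quantile normalization 0.23 and 0.15. For lymph nodes against primary tumors after withdrawal the medians were 0.35 for the large and 0.07 for the small subunit, and with estrogen 1.501 and 1.608 (after quantile normalization 0.54 and 0.32). Genes with a bacterial counterpart (45) had medians of 0.26 and −0.80 in lymph nodes and primary tumors, with 7 called lower in the latter, and those found only in mitochondria (30) had 0.24 and −0.91 with 2 called. After withdrawal the sites differed by a median of 0.35 for the former and 0.12 for the latter. The difference between these classes was not tested.

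Named members with distinct roles gave the following values. MRPS18A, MRPS18B and MRPS18C are related in sequence. MRPS18C is the counterpart of the bacterial protein, while MRPS18A (large subunit) and MRPS18B (small subunit) hold places of their own and are counted here with the proteins found only in mitochondria. Their deposited differences in primary tumors were 0.01, −0.84 and −0.88, and those in lymph nodes 0.32, 0.25 and 0.21, none of them called. The probe sets of MRPS18B and MRPS18C disagreed in sign in primary tumors, with 1 of 2 and 1 of 3 as given here. MRPS18A read 8.15 and 8.02 with estrogen in primary tumors and 8.35 and 7.78 after withdrawal, so its groups overlapped. MRPS30, long counted with the small subunit and now placed in the large one, read 6.04 and 5.91 with estrogen in primary tumors against 7.91 and 8.49, and 7.96, 6.10 and 9.13 against 8.34, 7.97 and 7.51 in lymph nodes. It separated the pellet states in primary tumors and not in lymph nodes. MRPL58, a release factor built into the large subunit, read 8.77 and 9.36 against 10.99 and 9.64 in primary tumors. MRPS12 read 7.21 and 7.31 against 7.86 and 7.55 there.

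Other proteins of mitochondrial translation, listed by role, showed a like split between scales in primary tumors. Of 4 mitoribosomal proteins named otherwise, CHCHD1 fell by 1.77 as deposited (SE 0.39, limma adjusted p = 0.0316), while DAP3, a GTP-binding protein of the small subunit, had a difference of −1.49 and did not pass. PTCD3 (−1.20) and GADD45GIP1 (0.24) did not pass either. The median of the 4 was −1.34, and after quantile normalization −0.04. Translation factors (14 genes) had a median of −0.82 with 1 called lower, and −0.01 after quantile normalization with the same 1 called. That gene was MTIF3, an initiation factor of mitochondria, which read 3.90 and 3.92 with estrogen and 5.40 and 5.59 after withdrawal as deposited. It fell by 1.58 (SE 0.33, limma adjusted p = 0.0277), and by 1.46 after quantile normalization (SE 0.26, limma adjusted p = 0.0413). In lymph nodes it was not called. Mitochondrial tRNA synthetases and related enzymes (18 tested of 21) had medians of −0.13 with 2 called lower, PARS2 (−1.19) and HARS2 (−1.40), and 0.29 with 0 called after quantile normalization. In lymph nodes these lists had deposited medians of −0.02, −0.02 and 0.27, with 0 called.

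Assembly factors of the mitochondrial ribosome (22 genes) held the opposite extremes in primary tumors. The list median was −0.32 as deposited and 0.12 after quantile normalization, with 2 called higher on both scales and 2 lower as deposited. DDX28, a helicase of large-subunit assembly, read 10.89 and 9.74 with estrogen against 5.45 and 5.85 after withdrawal, and 4.54 to 5.43 in the 6 lymph nodes. It rose by 4.66 (SE 0.44, limma adjusted p = 0.00462), with 3 of its 4 probe sets showing this sign. YBEY, an enzyme of ribosomal RNA processing, read 9.69 and 7.36 against 4.54 and 4.89, and 3.32 to 4.24 in lymph nodes, and rose by 3.81 (SE 0.65, limma adjusted p = 0.0164). Both stood high only in primary tumors with estrogen, the group where the members' medians were lowest as deposited. After quantile normalization the members' medians in that group were 8.09 and 8.15 (mice 11 and 14), above those of both withdrawn primary tumors. A relation between these genes and the members was not tested. MTERF3 and NOA1 fell by 2.83 and 1.63. In lymph nodes the assembly list had a median of 0.00 with 0 called.

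Cytosolic ribosomal protein genes and oxidative phosphorylation genes had larger deposited differences in primary tumors than the members. Of 69 cytosolic ribosomal protein genes 39 were called lower, with a median of −1.79, and of 80 oxidative phosphorylation genes 32, with a median of −1.82. After quantile normalization their medians were −0.16 and −0.27, with 0 called for the former and 1, higher, for the latter, while that of the members was 0.17. In lymph nodes they were 0.10 and −0.03 as deposited and 0.10 and 0.04 after quantile normalization, against 0.25 and 0.33 for the members. These lists are read at a higher signal than the members, with median ranks of 98.8 to 99.5 and 94.7 to 96.8 percent within an array, and the difference between lists was not tested.

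**Figure D5:**
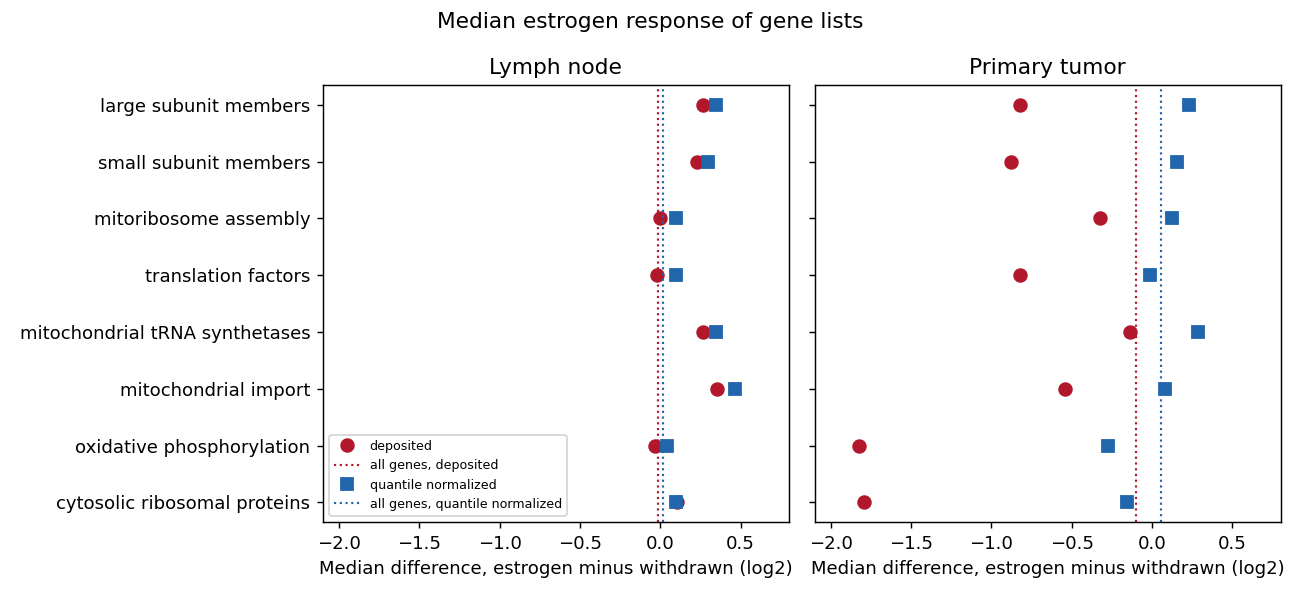
Median estrogen response (estrogen minus withdrawal, log2) of the mitochondrial ribosomal protein genes by subunit and of other gene lists, in lymph nodes (left) and primary tumors (right), as deposited (circles) and after quantile normalization (squares); dotted lines are medians of all genes and no error is drawn. In primary tumors the subunits lie at −0.82 and −0.88 as deposited and at 0.23 and 0.15 after quantile normalization.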

How the data were processed

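The authors deposited 1 log2 signal per probe set and array (61359 probe sets, 10 arrays), made with Partek and RMA per the submitters' processing notes, with versions not given in the sources used here. Symbols came from the platform's annotation table: 44532 probe sets had 1 symbol and 1492 several. Each gene was read by its probe set with the highest mean. Genes were kept from the 25th percentile of probe set means (2.31), which left 17170. Limma 3.58.1 in R 4.3.3 fitted 1 mean per group over all 10 arrays with mouse as a random block (consensus correlation −0.0415). P-values were adjusted over all genes by the Benjamini-Hochberg method, and a gene was called below 0.05. P-values measure the spread between the 2 or 3 mice within a group, estimated as 1 variance per gene over all groups. Limma draws this variance toward that of other genes. A test in 1 site thus also uses the spread in the other site. The fit was tested on simulated data. Deviations from group means in the 4 mice with both sites correlated at 0.18, −0.21, −0.21 and 0.08; the pairing comes from the mouse numbers in the labels. Members, lists and markers were chosen with earlier results of these data known. Named members are all called ones (the 8 with the greatest difference beyond 12), up to 4 by t where fewer than 4 were called, those against the median, and members with known special roles. The number of arrays limits the precision. Alternatives are given in the closing section.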

Additional observations from a re-analysis of the deposited data

Results flagged for a closer look

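For 5 members the deposited values of the groups did not overlap in either site and ran in opposite directions: higher with estrogen in lymph nodes and lower in primary tumors. This pattern was shown by 6.58% of the members and 0.606% of all 17170 genes, and the reverse by 0 members and 0.344% of all genes. The difference between the responses was 1.71 for MRPS17, 1.39 for MRPL36, 1.38 for MRPS12, 1.17 for MRPS5 and 1.04 for MRPL34. None passed the test of that difference, with limma adjusted p-values of 0.244 to 0.398. In primary tumors the sign held for 1 of 6 probe sets of MRPS5 and 2 of 4 of MRPS12. After quantile normalization the difference in primary tumors was above 0 for each of the 5. The pattern was then shown by 1 member, MRPL21, or 1.32% of the members, and by 0.291% of all genes. As deposited, 85.4% of genes of like signal were below 0 in primary tumors, against 55.9% of all genes, so all genes are an unlike background here.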

How the results depend on the processing

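Beyond quantile normalization (primary tumors: 1 called, median 0.17; difference between sites: median 0.16; lymph node against primary tumor with estrogen: 0 called, median 0.47), the hybridization split as a covariate moved several counts. It gave 45 called (32.8% of all genes) and a median of −1.56 in primary tumors, where the split follows the pellet state and is estimated from lymph nodes. It gave 38 (19.7%) and 1.84 for the difference between sites, 59 (26.2%) for the sites with estrogen, and 5 (6.28%) and a median of −0.27 for the sites after withdrawal. In primary tumors the mean of all probe sets gave 5 called (4.17% of all genes) and the arrays of the comparison alone 26 (21.5%). For the sites with estrogen the arrays alone gave 0, a variance trend 17 (6.95% of all genes) and mouse as a fixed replicate block, on 8 arrays, 0. Without the random block the counts were 9 in primary tumors (7.96% of all genes), 31 for the sites with estrogen (9.28%) and 0 elsewhere. The fixed block cannot be fitted for the pellet comparisons within a site, where each mouse has 1 state.

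With each array left out, called members numbered 0 in lymph nodes, 0 to 23 in primary tumors, 0 to 18 for the difference between sites, 4 to 54 for the sites with estrogen and 0 after withdrawal. The counts of 23, 18 and 54 came without the lymph node of mouse 11, where 20.8%, 8.99% and 22.4% of all genes were called. In the order of the comparisons above, medians ran from 0.05 to 0.48, −1.14 to −0.58, 0.93 to 1.44, 1.22 to 1.83 and 0.10 to 0.48. With quantile normalization as well, an alternative chosen after seeing the data, called members numbered 0, 0 to 8, 0, 0 to 2 and 0, and medians ran from 0.27 to 0.45, −0.04 to 0.31, 0.04 to 0.31, 0.29 to 0.48 and 0.05 to 0.36. Of the 9 genes called lower in primary tumors as deposited, MRPS15, MRPL9, MRPS21 and MRPS14 changed sign under quantile normalization, to 0.12, 0.17, 0.17 and 0.0183. In a tally of values of single genes over settings, 1106 kept direction and side of the threshold, 111 lost the threshold, 32 passed it and 4 changed sign. The tally does not count every sign change. Under quantile normalization the members below 0 went from 64 to 29 in primary tumors, and from 4 to 30 for the difference between sites. The cause of these moves was not tested. Groups of 2 and 3 arrays limit what can be called.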

Other observations

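Genes that act upstream of the members, or beside them, gave these values. The lists of regulators, import and mitochondrial DNA genes held 0 called genes for estrogen in lymph nodes. Nuclear regulators of mitochondrial genes (9) had median estrogen differences of 0.25 in lymph nodes and 0.11 in primary tumors as deposited, and 0.36 and 0.57 after quantile normalization. YY1, which fell by 2.32 in primary tumors as deposited (SE 0.34, limma adjusted p = 0.0122), was the only one called there, and after quantile normalization none was. ESRRA, a nuclear receptor that drives genes of mitochondrial energy metabolism, differed by 0.31 in primary tumors and 0.47 in lymph nodes and was not called.

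Genes of protein import into mitochondria (18 tested of 21), through which every member's protein must pass, had medians of 0.36 in lymph nodes and −0.54 in primary tumors, and 0.46 and 0.08 after quantile normalization. TOMM70, an import receptor, read 8.40 and 8.42 with estrogen in primary tumors against 9.86 and 10.11 after withdrawal and fell by 1.57 (SE 0.27, limma adjusted p = 0.0166). After quantile normalization its difference was −0.07, and TOMM22, another receptor, rose by 1.92 (SE 0.24, limma adjusted p = 0.0167). Genes of mitochondrial DNA transcription and replication (10) had medians of 0.11 and −0.54, and 0.20 and −0.02 after quantile normalization. SSBP1, which binds single-stranded mitochondrial DNA, fell by 1.75 as deposited (SE 0.36, limma adjusted p = 0.0271). Summed levels of fibroblast markers (7 genes) were 20.8 to 24.2 and of adipocyte markers (4 genes) 8.61 to 9.80 over the 10 arrays.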
